A study of Homo sapiens with 6 samples.

Results

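The neutrophil-attracting CXC chemokines CXCL1, CXCL2, CXCL3, CXCL5, CXCL6 and CXCL8 and the IL-6 family cytokines IL6 and LIF were followed in oncospheres of SUM159, an established triple-negative line of human breast cancer. All probe sets annotated to exactly 1 of these 8 gene symbols were taken, which gave 13 probe sets of the 54613 tested on the array and 8 genes of 19775. CXCL1, CXCL3, CXCL6, IL6 and LIF had 1 probe set each, CXCL8 had 2, and CXCL2 and CXCL5 had 3 each. A probe set is a group of short probes that reads 1 stretch of an mRNA near its 3′ end, and its level is given in log2 units, so that a difference of 1 is a doubling.

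The cells carried the lentiviral vector pLVX-puro with human SCGB3A1, a small secreted protein of the secretoglobin family (3 arrays), or the same vector with no insert (empty vector, 3 arrays). Puromycin at 2 µg/ml was applied to both groups during 7 days of selection. Both were then held for 5 days on ultra-low attachment plastic, where the cells float and form spheres, at 12500 cells/ml in HuMEC medium with BSA and B27. The comparison asks how cancer cells that carry SCGB3A1 differ from their vector controls. The replicates are labelled biological, but no source used here says whether each was a separate infection, so a p-value here reflects only how far these samples scatter, which may be technical.

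ELR-type CXC chemokines are named for the amino acids Glu-Leu-Arg that precede their CXC motif. They bind the receptor CXCR2 and some of them also CXCR1, and they draw neutrophils into inflamed tissue and tumors, and their genes lie in a tandem cluster on chromosome 4. IL6 and LIF signal through receptor complexes that share the subunit IL6ST (gp130) and activate JAK kinases and STAT3. Transcription of most of these genes is raised by IL-1 or TNF through NF-κB, and their mRNAs are short-lived because AU-rich elements recruit decay factors such as ZFP36.

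The promoters of the members share a sequence motif. RefSeq promoter windows of 300 bases (250 before and 50 after the transcription start, GRCh38.p14) matched 7 of the 8 genes, all but LIF. The NF-κB core motif GGNNTTTCC, searched on both strands, was found in 7 of 7 member windows and in 6.26% of 35116 windows of all genes. Its form GGAATTTCC was found in 6 of 7, all but IL6, and in 0.461% of all windows. The bases from 100 to 41 before each start are printed 5′ to 3′ on the strand of the gene, with the matches to GGNNTTTCC in capitals, since they show how alike the chemokine genes are at this site.

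CXCL1, chr4:73869293-73869352, plus strand: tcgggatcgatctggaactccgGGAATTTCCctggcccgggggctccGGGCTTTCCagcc
CXCL2, chr4:74099236-74099295, minus strand: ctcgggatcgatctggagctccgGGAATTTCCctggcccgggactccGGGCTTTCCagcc
CXCL3, chr4:74038730-74038789, minus strand: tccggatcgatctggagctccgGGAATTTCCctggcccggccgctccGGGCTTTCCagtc
CXCL5, chr4:73998718-73998777, minus strand: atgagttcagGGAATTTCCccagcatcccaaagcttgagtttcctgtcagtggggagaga
CXCL6, chr4:73836578-73836637, plus strand: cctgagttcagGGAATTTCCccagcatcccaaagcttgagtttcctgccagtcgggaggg
CXCL8, chr4:73740469-73740528, plus strand: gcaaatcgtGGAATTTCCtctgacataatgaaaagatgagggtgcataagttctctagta
IL6, chr7:22727100-22727159, plus strand: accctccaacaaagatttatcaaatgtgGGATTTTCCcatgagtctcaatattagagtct

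CXCL1, CXCL2 and CXCL3 each held a pair of matches, the nearer one starting 53 bases before the start in all 3 genes. CXCL5, CXCL6, CXCL8 and IL6 held 1 match each, which began 90, 89, 91 and 72 bases before the start. Over the whole windows CXCL1 and CXCL3 were 82.5% identical when aligned, CXCL1 and CXCL2 69.8%, and CXCL5 and CXCL6 83.1%. An AP-1 motif (TGANTCA, in 7.71% of all windows) was found only in CXCL8, and a C/EBP motif (TTNNGCAAT, in 2.31%) only in IL6, with no overlap with the NF-κB matches. On chromosome 4 the genes follow each other in the order CXCL8, CXCL6, PF4V1, CXCL1, PF4, PPBP, CXCL5, CXCL3, CXCL2. These matches describe the letters of the windows, and binding was not measured.

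**Figure D1:**
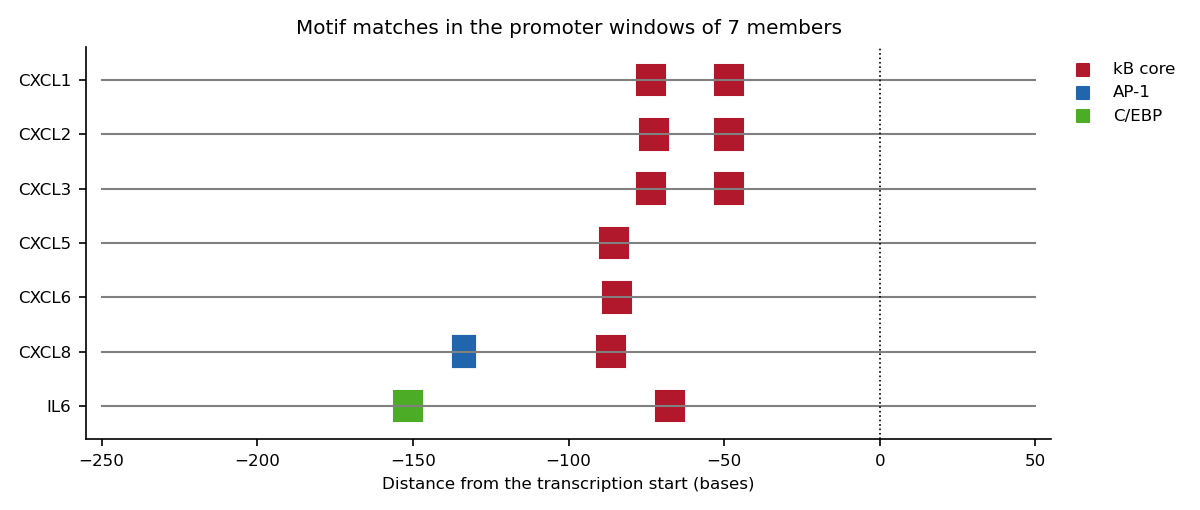
Matches to the NF-κB core (red), AP-1 (blue) and C/EBP (green) motifs in the promoter windows of 7 members, one line per gene, against the distance from the transcription start in bases (dotted line at the start). All 7 windows hold an NF-κB core match within 100 bases of the start, and CXCL1, CXCL2 and CXCL3 hold 2.

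The targeted gene was examined first. The only SCGB3A1 probe set read 6.60, 6.92 and 6.71 in the arrays labelled SCGB3A1, against 6.80, 6.89 and 7.05 in the empty vector arrays, which overlap (log2 fold change -0.17, SE 0.096, limma adjusted p = 0.835). It therefore does not check the labels, and whether its probes lie within the inserted coding sequence is not given in the sources used here. Directions below are those of the arrays as labelled. Empty vector replicate 2 stood apart from the other 5 arrays, with correlations of 0.989 to 0.993 to each of them and a score of 30.7 on the first principal component, where the others lay between -16.1 and 6.13. Among markers of the line, VIM, CD44, KRT5, KRT8 and KRT18 were high (10.8 or more in both groups at the brightest probe set). EPCAM and CDH1 were at 6.18 to 6.28 and PGR at 6.35 to 6.38, below the median level of all probe sets (6.91). Of the 4 receptor genes ESR1, PGR, ERBB2 and EGFR, however, 3 had a probe set above that median (11 of 23 probe sets). Of 18 probe sets of 10 leukocyte marker genes, 10 lay below that median, and their mean level per array was 6.75 to 6.80 in SCGB3A1 arrays and 6.75 to 6.78 in empty vector arrays. At an unadjusted p under 0.05, 1 of them was higher in SCGB3A1 cells (CSF1R at 0.23, dim and with overlap) and 0 lower. Endothelial markers (15 probe sets) had 3 higher and 0 lower in SCGB3A1 cells at an unadjusted p under 0.05, against 3.09% and 3.10% of all probe sets. They were of PECAM1 (0.27 and 0.23, kept in 6 of 6 fits with 1 array left out) and VWF (0.20, kept in 2). Fibroblast markers (20 probe sets) had 5 higher and 2 lower. Higher were LUM (0.52), DCN (0.40, 0.40 and 0.34) and PDGFRB (0.26), lower COL1A1 1556499_s_at (-0.21) and DCN 240556_at (-0.19). LUM and the higher DCN probe sets kept an unadjusted p under 0.05 in 6 of 6 fits with 1 array left out. PDGFRB kept it in 5, COL1A1 1556499_s_at in 3 and DCN 240556_at in 2. DCN thus had probe sets in both directions. The mean level of the fibroblast markers per array was 8.36 to 8.38 in SCGB3A1 arrays and 8.30 to 8.35 in empty vector arrays. Keratin and adhesion genes had 3 higher and 1 lower of 22 probe sets. The higher ones were of KRT5 (0.56), KRT14 (0.56) and CD44 (216056_at, 0.19), the lower one of CD44 (217523_at, -0.18). KRT5 and KRT14 kept an unadjusted p under 0.05 in 6 of 6 fits with 1 array left out, and each of these CD44 probe sets in 3. The receptors ESR1, PGR, ERBB2 and EGFR had 0 higher and 2 lower of 23, EGFR 224999_at (-0.24) and ERBB2 234354_x_at (-0.20). Whether these markers bear on the values of CXCL1 or CXCL2 was not tested.

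No member probe set passed an adjusted p of 0.05 in limma (0 of 13), whereas 10 of all 54613 probe sets did (0.0183%). At an unadjusted p under 0.05, 2 members read higher in SCGB3A1 cells (CXCL1 and CXCL2 209774_x_at, against 3.09% of all probe sets) and 1 read lower (CXCL2 230101_at, against 3.10%). The groups did not overlap for 2 members that were higher (CXCL1 and CXCL5 207852_at, against 5.95% of all probe sets) and 1 that was lower (CXCL2 230101_at, against 5.25%). Of the 13 log2 fold changes, 8 were above 0, and of the 8 main probe sets, the brightest of each gene, 4 were. The median over the 13 was 0.049, beside 0.0026 over all probe sets, but 0.0037 with 1 probe set per gene and 0.031 to 0.086 when 1 array was left out. The median size of the 13 without sign was 0.11, beside 0.063. CXCL1 and CXCL2 209774_x_at stood at the upper end of the family and CXCL2 230101_at at the lower end, while the other 10 probe sets lay within the range that holds 90% of the array, as the plot of fold changes shows.

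**Figure D2:**
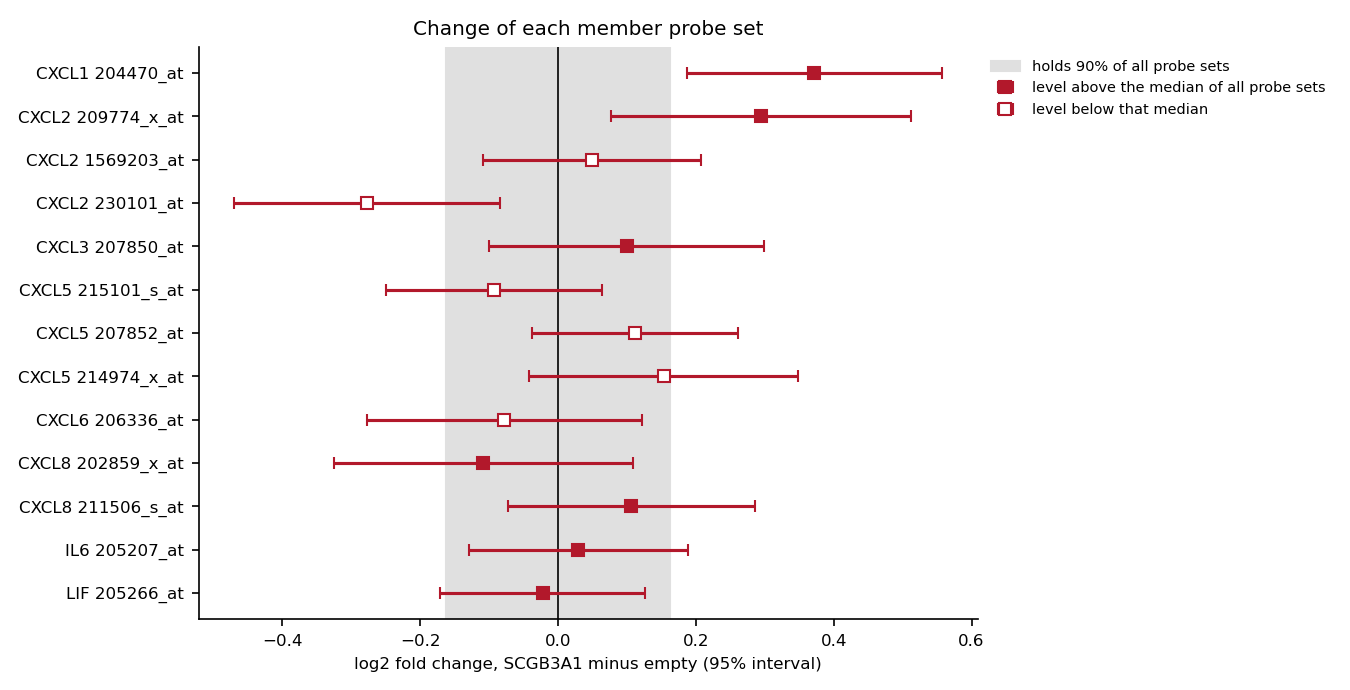
Log2 fold change of each member probe set, SCGB3A1 minus empty vector, with its 95% interval from limma (n = 3 arrays per group). Filled squares lie above the median level of all probe sets, open squares below it, and the grey band holds 90% of all probe sets (up to 0.16 in size). CXCL1 at 0.37, CXCL2 209774_x_at at 0.29 and CXCL2 230101_at at -0.28 are the 3 points outside the band.

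CXCL1, first described as a melanoma growth factor and a ligand of CXCR2, had the largest value of the members. Its probe set 204470_at read 7.36, 7.23 and 7.50 in SCGB3A1 arrays, against 6.96, 6.93 and 7.09 in empty vector arrays. The lowest SCGB3A1 array lay above the highest empty vector array. The means were 7.36 ± 0.13 in SCGB3A1 cells and 6.99 ± 0.08 in empty vector cells (SD, n = 3 each), a 1.29-fold difference (log2 fold change 0.37, SE 0.085, 95% interval 0.19 to 0.56). CXCL1 ranked 100 of 54613 by p (limma unadjusted p = 0.00089), but its limma adjusted p was 0.475. In the 13 alternatives its log2 fold change lay between 0.30 (without SCGB3A1 replicate 3) and 0.44 (without SCGB3A1 replicate 2), the unadjusted p stayed under 0.05 in 13 of 13, and the limma adjusted p ran from 0.371 to 0.998. In bulk samples, more cells that express a gene and more RNA of it per cell cannot be told apart.

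CXCL2, the close relative of CXCL1 that neutrophils and macrophages also make, was read by 3 probe sets that did not move together. The brightest, 209774_x_at, read 9.26, 9.20 and 9.36 in SCGB3A1 arrays, against 8.92, 8.81 and 9.21 in empty vector arrays. Empty vector replicate 3 lay within the range of the SCGB3A1 arrays, and the other empty vector arrays lay below all of them. The log2 fold change was 0.29 (SE 0.10, 95% interval 0.077 to 0.51, limma adjusted p = 0.737). It was 0.21 without empty vector replicate 2, where the unadjusted p no longer passed 0.05 (limma, 0.051), and 0.41 without empty vector replicate 3. The ending _x_at marks probe sets that the manufacturer lists as open to cross-hybridization with related transcripts, and whether it also read CXCL1 or CXCL3 was not tested.

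CXCL2 230101_at ran the other way at a level below the array median. It read 6.12, 6.01 and 6.15 in SCGB3A1 arrays and 6.44, 6.48 and 6.19 in empty vector arrays, so that every SCGB3A1 array was lower (log2 fold change -0.28, 95% interval -0.47 to -0.08, limma adjusted p = 0.725). It was -0.22 without empty vector replicate 2 and -0.37 without empty vector replicate 3. The remaining CXCL2 probe set, 1569203_at, also dim, gave 0.049 (limma adjusted p = 0.941). The log2 fold changes of 209774_x_at and 230101_at differed by 0.57. An exact permutation of the group labels gave p = 0.1 for this difference. That is the smallest p it can give with 3 arrays per group, so it cannot decide the question. The 3 CXCL2 probe sets gave no single direction.

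CXCL3, the remaining member of the CXCL1-type trio, read 7.32, 7.57 and 7.61 in SCGB3A1 arrays and 7.43, 7.28 and 7.48 in empty vector arrays. SCGB3A1 replicate 1 lay inside the empty vector range and the other SCGB3A1 arrays above it. The log2 fold change was 0.10 (SE 0.092, 95% interval -0.10 to 0.30, limma adjusted p = 0.899), and leaving out 1 array gave 0.042 to 0.19. The interval holds no change as well as the value of CXCL2 209774_x_at.

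CXCL8 (interleukin 8), the archetype of the neutrophil attractants and a ligand of both CXCR1 and CXCR2, was bright at both of its probe sets. Probe set 202859_x_at read 8.84, 8.84 and 9.12 in SCGB3A1 arrays and 8.88, 9.19 and 9.06 in empty vector arrays. Probe set 211506_s_at read 8.16, 8.22 and 8.41 in SCGB3A1 arrays and 8.09, 8.19 and 8.19 in empty vector arrays. The groups overlapped at both, and in both the SCGB3A1 group was headed by replicate 3. The log2 fold changes were -0.11 (95% interval -0.33 to 0.11) and 0.11 (95% interval -0.07 to 0.29), opposite in sign. Leaving out 1 array gave -0.20 (without SCGB3A1 replicate 3) to -0.037 (without empty vector replicate 2) at 202859_x_at, and 0.032 (without SCGB3A1 replicate 3) to 0.16 (without SCGB3A1 replicate 1) at 211506_s_at. The pair of probe sets gives no direction for CXCL8, and an increase above 1.22-fold lies outside both intervals.

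CXCL5, which epithelial cells release, and CXCL6, its neighbour in sequence, lay near the floor of the array. All 4 of their probe sets were below the median level of all probe sets, with group means of 5.95 to 6.19. CXCL5 207852_at read 6.12, 6.14 and 6.07 in SCGB3A1 arrays and 6.01, 5.98 and 5.99 in empty vector arrays, without overlap but with a log2 fold change of only 0.11 (limma adjusted p = 0.849). The other CXCL5 probe sets gave -0.09 (215101_s_at) and 0.15 (214974_x_at), and the last was 0.060 without SCGB3A1 replicate 1 and 0.23 without SCGB3A1 replicate 3. CXCL6 206336_at read 5.99, 6.14 and 6.17 in SCGB3A1 arrays and 6.26, 5.99 and 6.28 in empty vector arrays, a log2 fold change of -0.08 (95% interval -0.28 to 0.12) that was -0.17 without empty vector replicate 2 and -0.023 without SCGB3A1 replicate 1. At such levels RMA compresses differences, and the table holds no detection calls, so these values do not show whether CXCL5 and CXCL6 were expressed.

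IL6, which acts on tumor cells themselves as well as on leukocytes and liver, was clearly above the median level and almost the same in both groups. It read 8.24, 8.11 and 8.12 in SCGB3A1 arrays and 8.17, 8.13 and 8.08 in empty vector arrays, with full overlap. The log2 fold change was 0.030 (SE 0.073, 95% interval -0.13 to 0.19, limma adjusted p = 0.966), and it was -0.012 without SCGB3A1 replicate 1. As a fold, the interval runs from 0.914 to 1.14.

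LIF, known for keeping mouse embryonic stem cells undifferentiated, was the steadiest member. It read 7.65, 7.58 and 7.62 in SCGB3A1 arrays and 7.63, 7.64 and 7.65 in empty vector arrays. The log2 fold change was -0.022 (SE 0.068, 95% interval -0.17 to 0.13, limma adjusted p = 0.973). Its spread between replicates (residual SD 0.024) was smaller than that of all but 0.798% of probe sets. CXCL2 209774_x_at (0.16) and CXCL8 202859_x_at (0.16) lay at the other end, with a median of 0.097 over all probe sets.

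**Figure D3:**
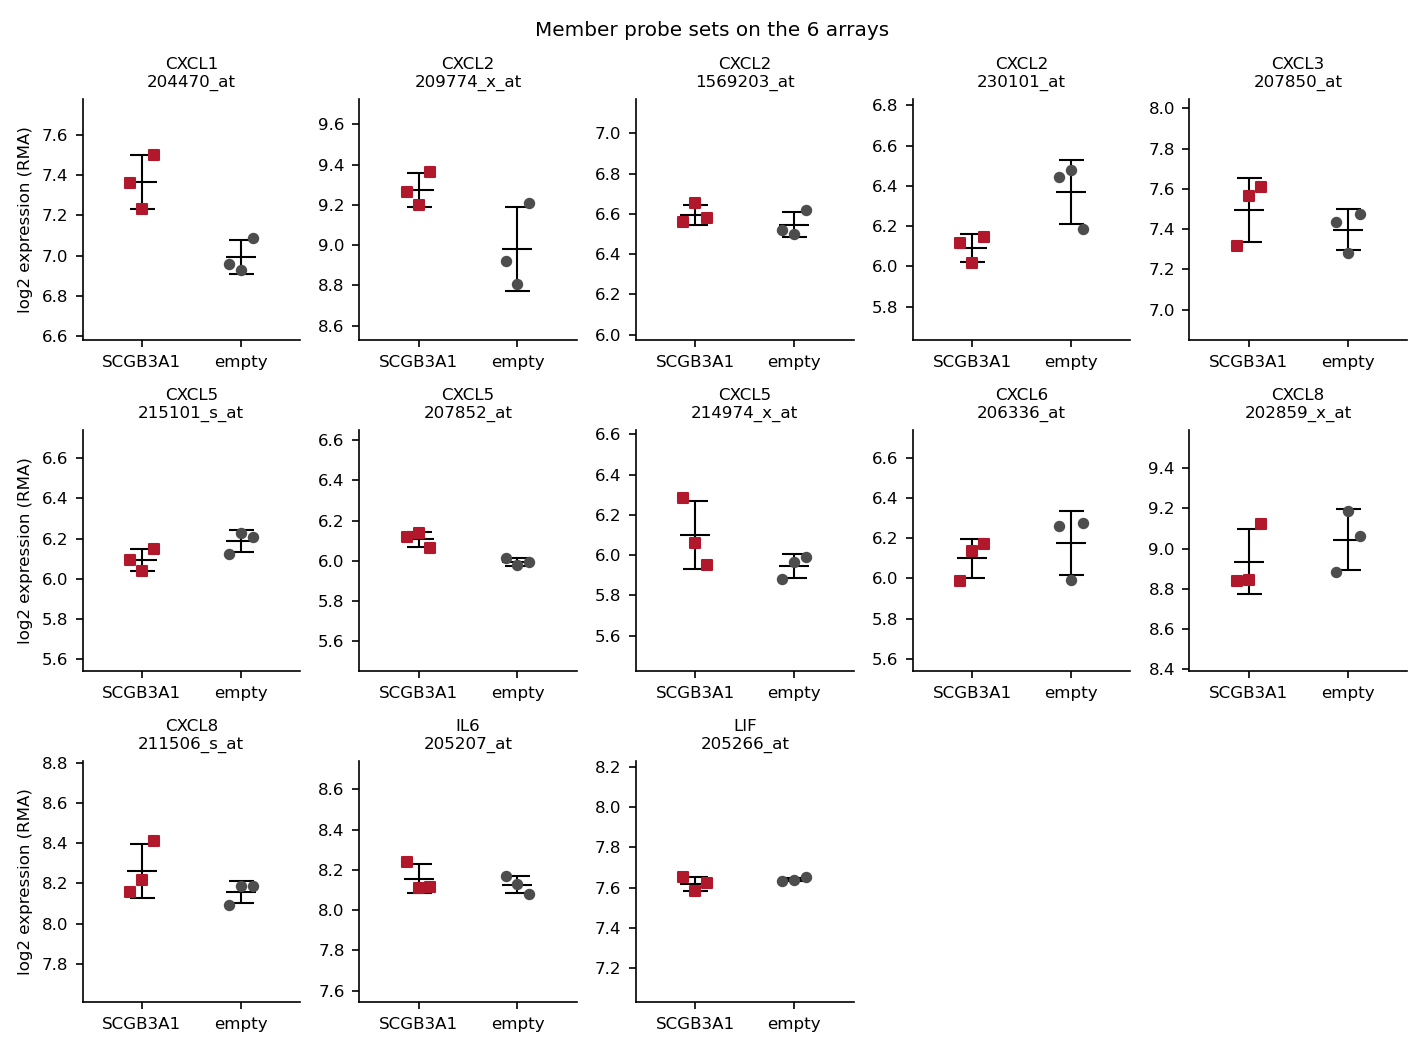
Log2 level (RMA) of each of the 13 member probe sets on the 6 arrays, SCGB3A1 (squares) left of empty vector (circles), with the group mean and SD. Each panel spans 1.2 log2 units around its own centre, so heights can be compared within a panel only. CXCL1, CXCL2 230101_at and CXCL5 207852_at separate the groups. CXCL2 209774_x_at differs in the direction opposite to 230101_at, with overlap between groups, and LIF hardly varies.

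Whether CXCL1 changed more than the other members is left undecided, since it is singled out here for its value. An exact permutation of the group labels could not give a p below 0.1 with 3 arrays per group. The highest value of a member probe set was most often in SCGB3A1 replicate 3 (4 of 13), and the lowest in empty vector replicate 2 (5 of 13), the array that stood apart. Without it CXCL1 still gave a log2 fold change of 0.34.

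For each member, the 3 named genes with the most similar profile over the 6 arrays were listed, among 23447 probe sets above the median level with 1 symbol. CXCL1 was most like POPDC3 (Pearson r = 0.991), SLC39A13 (0.990) and PDGFA (0.989), and CXCL2 209774_x_at was most like HFE (0.993), TMEM18 (0.989) and BDKRB1 (0.988). IL6 was closest to CTBP2 (0.991), NIF3L1 (0.989) and ANKRD26 (0.988), and CXCL8 202859_x_at to CALD1 (0.997), SKA2 (0.991) and ARRDC3 (0.991). With 6 arrays such values are common: between 106 (LIF) and 574 (CXCL8) probe sets exceeded an r of 0.9. The arrays share their normalization, and these similarities are a description only. Between the members themselves, the main probe sets of CXCL1 and CXCL2 had the highest r over the 6 arrays (0.907), which contains the group difference. With group means removed it was 0.802, below CXCL5 with CXCL8 (0.911) and CXCL3 with CXCL6 (0.892).

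Receptors for the ELR chemokines were measured by 9 probe sets of 5 genes, of which 0 passed an unadjusted p of 0.05 in limma, with a median log2 fold change of 0.0023. CXCR1 read 7.62, 7.55 and 7.51 in SCGB3A1 arrays and 7.74, 7.65 and 7.60 in empty vector arrays (log2 fold change -0.11, limma adjusted p = 0.864). CXCR2 was dim, at 6.20 in SCGB3A1 and 6.21 in empty vector arrays on average. The groups overlapped at both receptors.

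Receptors of the IL-6 family included 4 probe sets, of IL6ST and LIFR, that read lower in SCGB3A1 cells before adjustment only. Of 24 probe sets of 7 genes, 4 were lower at an unadjusted p under 0.05 and 0 higher (median -0.023), and 0 passed the adjusted p. Over all probe sets 3.10% were lower and 3.09% higher at that threshold. The groups did not overlap for 5.25% that were lower and 5.95% that were higher, and the list counts below stand beside these shares. IL6ST 204863_s_at read 9.49, 9.44 and 9.49 in SCGB3A1 arrays, against 9.82, 9.91 and 9.73 in empty vector arrays. All SCGB3A1 arrays were below all empty vector arrays (log2 fold change -0.35, SE 0.074, limma adjusted p = 0.385), and leaving out 1 array gave -0.39 to -0.30. All 7 IL6ST probe sets had a log2 fold change below 0, the nearest to 0 being 212196_at at -0.043, though their groups overlapped at the other 6. LIFR, the subunit that pairs with IL6ST to bind LIF, read 7.50, 7.49 and 7.80 in SCGB3A1 arrays and 7.85, 7.82 and 7.89 in empty vector arrays at 225571_at (-0.26, limma adjusted p = 0.756). At 205876_at it gave -0.27, with overlap between groups. At 225575_at it gave -0.24, but this was -0.098 without empty vector replicate 2. In the 6 fits that left out 1 array, these 3 LIFR probe sets kept an unadjusted p under 0.05 in 4, 3 and 2, and IL6ST 204863_s_at in 6. The other LIFR probe sets also overlapped between groups, with -0.11 at 227771_at and 0.011 at 229185_at. IL6R, which binds IL6 itself, gave 0.11, 0.077 and 0.039, with overlap at all 3 probe sets.

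**Figure D4:**
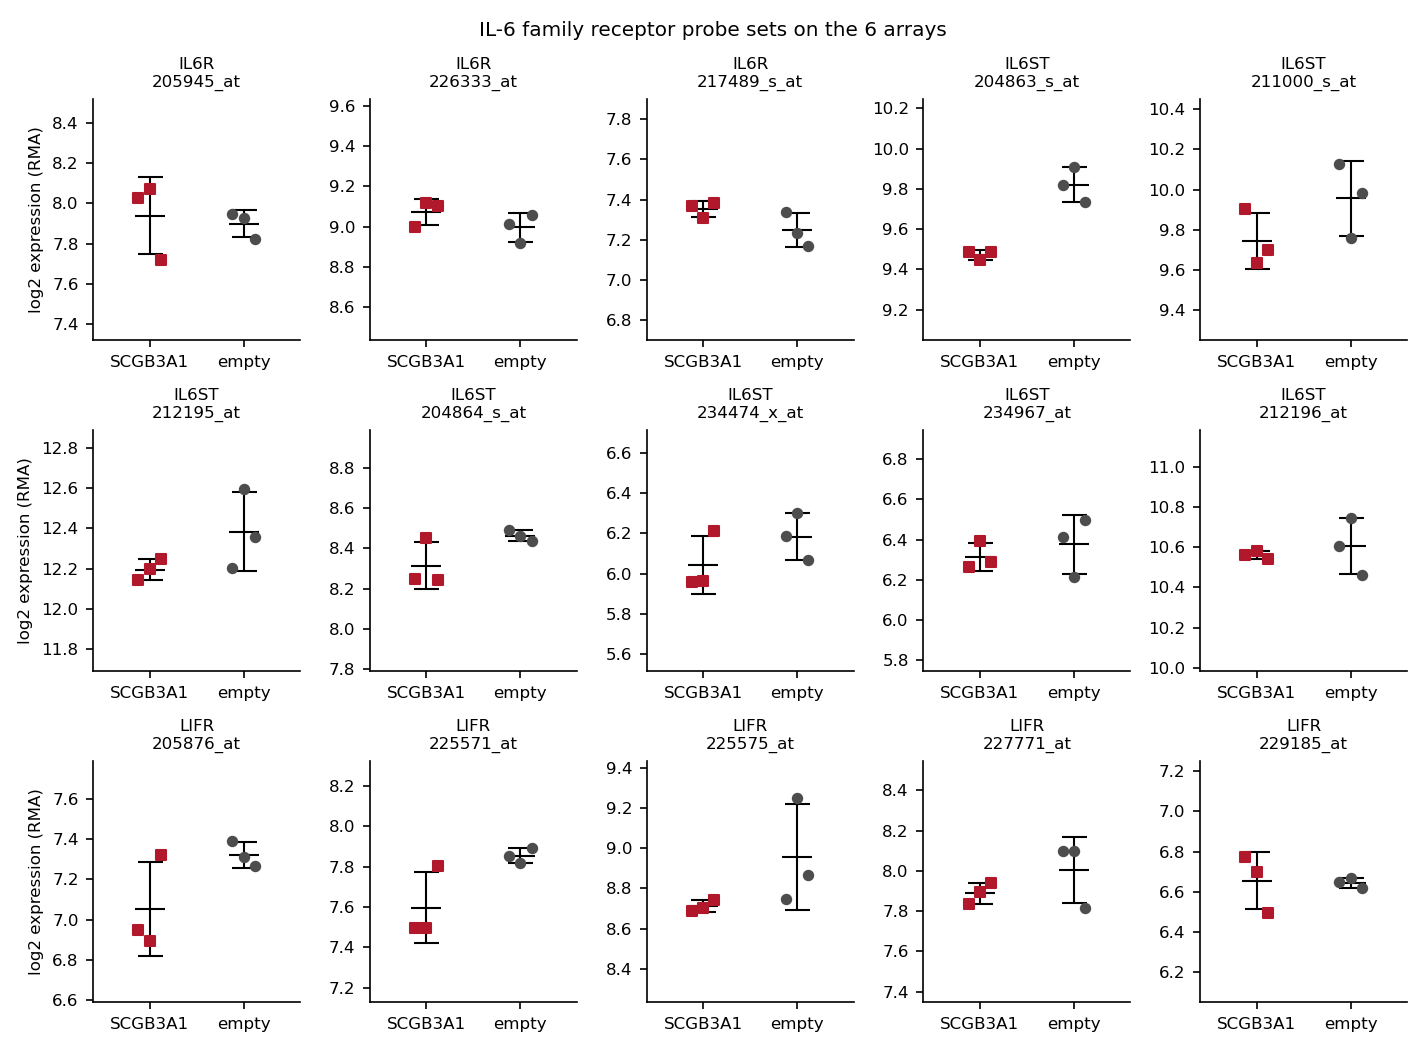
Log2 level (RMA) of the IL6R, IL6ST and LIFR probe sets on the 6 arrays, SCGB3A1 (squares) left of empty vector (circles), with the group mean and SD and 1.2 log2 units per panel. IL6ST 204863_s_at separates the groups at 9.44 to 9.49 against 9.73 to 9.91, whereas the 3 IL6R probe sets overlap.

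Downstream of these receptors, 13 genes of JAK and STAT3 signalling and its feedback had 41 probe sets, of which 3 were lower and 0 higher at an unadjusted p under 0.05 (median -0.023). They were 2 of the 5 probe sets of JAK1 (-0.19, and -0.16 at a dim probe set), the kinase bound to IL6ST, and 1 of SOCS1 (-0.25), a feedback inhibitor of JAKs, and they kept an unadjusted p under 0.05 in 1 to 3 of the 6 fits that left out 1 array. The other JAK1 probe sets gave -0.078, 0.056 and 0.030, and the other SOCS1 probe sets -0.25, -0.064 and -0.023. The 4 STAT3 probe sets lay between -0.038 and 0.090. SOCS3, the inhibitor that STAT3 itself induces, gave -0.29 at 206360_s_at with overlap, where empty vector replicate 2 was the highest array at 7.92 and the others lay between 7.12 and 7.36. The other SOCS3 probe sets gave -0.19, -0.040 and 0.0041. Other cytokines of the IL-6 family, among them IL11 and OSM, had 8 probe sets, with 0 past the unadjusted threshold and a median of 0.033.

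Upstream, the cytokines that induce the members and their receptors had 39 probe sets of 18 genes, with 0 past the unadjusted threshold and a median of 0.034. The brighter IL1A probe set gave 0.16, the brighter IL1B probe set 0.083 and TNF, which was dim, -0.044. NF-κB factors and kinases had 29 probe sets, with 2 lower (RELA 201783_s_at at -0.16 and a dim REL probe set at -0.21), 0 higher and a median of 0.0082. The other RELA probe set gave 0.079 and NFKB1 0.063. With 1 array left out in turn, RELA kept an unadjusted p under 0.05 in 1 fit of 6 and REL in 2. Feedback inhibitors had 22 probe sets, with CYLD 214272_at, a deubiquitinase, at 0.26 and a dim NFKBIA probe set at -0.17 past the unadjusted threshold, in 6 and 2 of those 6 fits. NFKBIA 201502_s_at, at a level of 11.0 in SCGB3A1 and 10.9 in empty vector arrays, gave 0.030, NFKBIZ 0.13 and 0.096, and TNFAIP3 0.066 and 0.058.

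Other NF-κB targets, 33 probe sets of 20 genes, had a median of 0.00093, with 4 higher and 2 lower at an unadjusted p under 0.05. The 4 were PTGES (0.27) and PTGS2 (0.19), enzymes of prostaglandin E2 synthesis, the adhesion molecule ICAM1 (0.23) and the protease PLAU (0.20), each without overlap. Leaving out 1 array in turn, PTGES kept an unadjusted p under 0.05 in 6 fits of 6, ICAM1 in 5, PLAU in 4 and PTGS2 in 2. A second PTGES probe set gave -0.0023 and the other ICAM1 probe sets 0.076 and 0.013. PTX3, a secreted pattern recognition protein, read 7.95, 8.08 and 8.76 in SCGB3A1 arrays and 8.60, 8.88 and 8.52 in empty vector arrays (-0.40, limma adjusted p = 0.787). SCGB3A1 replicate 3 lay among the empty vector arrays, and without it the value was -0.65. The other lower target, BCL2A1 205681_at, gave -0.21 and kept an unadjusted p under 0.05 in 2 of the 6 fits with 1 array left out. Decay factors of AU-rich mRNAs, 38 probe sets of 9 genes, had 3 lower (KHSRP -0.26, HNRNPD -0.21, RC3H1 -0.22), 0 higher and a median of -0.042, and ZFP36 gave -0.068. The 3 decay factors, and PTX3, each kept an unadjusted p under 0.05 in 3 of the 6 fits with 1 array left out.

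Among 14 probe sets of 10 other CXC chemokines, 3 were higher at an unadjusted p under 0.05 and 0 lower, with a median of 0.042. CXCL11, an interferon-induced ligand of CXCR3, read 10.2, 10.2 and 9.94 in SCGB3A1 arrays at 211122_s_at, against 9.85, 9.76 and 9.77 in empty vector arrays (0.32, limma adjusted p = 0.705). CXCL10, a further CXCR3 ligand, gave 0.23 and CXCL12, the ligand of CXCR4, 0.18, both without overlap. Each has a limit: CXCL11 210163_at gave -0.14, CXCL12 209687_at -0.10, and CXCL10 was 0.16 without empty vector replicate 2, no longer past the unadjusted threshold. CXCL12 kept it in 2 of the 6 fits with 1 array left out. CC chemokines, 15 probe sets of 11 genes, had a median of -0.057, with CCL7 lower (-0.21, dim) and 0 higher. No list held a probe set past the adjusted threshold.

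**Figure D5:**
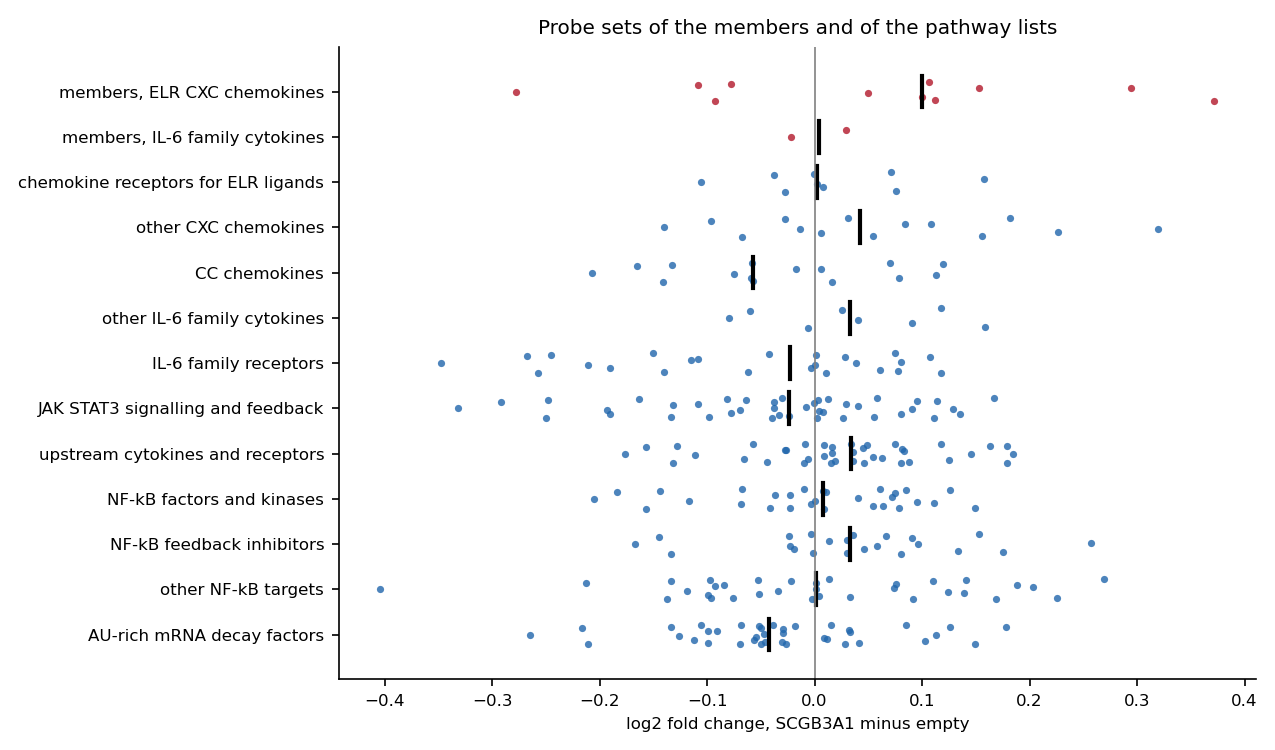
Log2 fold change, SCGB3A1 minus empty vector, of every probe set of the members (red) and of the pathway lists (blue), one row per list, with the list median as a black bar. List medians lie between -0.057 (CC chemokines) and 0.042 (other CXC chemokines), beside 0.099 for the 11 probe sets of the ELR chemokines and 0.0037 for IL6 and LIF.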

How the data were processed

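Total RNA (100 ng per sample) was labelled with biotin and hybridised to 6 Affymetrix Human Genome U133 Plus 2.0 arrays. The authors normalized the arrays by RMA in Chipster, which gave deposited log2 values from 5.66 to 14.7 with no missing value. RMA quantile normalizes the arrays, so the amount of RNA in each cell is lost, and it compresses differences of weakly expressed genes. For arrays, their number limits the precision.

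Of 54675 probe sets, 62 manufacturer controls were set aside. GEO's platform annotation, checked against a RefSeq gene table, gave 1 symbol for 41091 of the rest, several for 1801 and none for 11721. Groups were compared with limma 3.58.1 in R 4.3.3 (lmFit and eBayes over all 54613 probe sets, two-sided, Benjamini-Hochberg), as in the study's methods, and the fit was tested on simulated data.

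The members and 16 pathway and marker lists (168 genes, 154 matched) were chosen with earlier results of these data known. Named were all member probe sets, and of each list up to 4 genes with the smallest unadjusted p under 0.05 (all such genes for the other NF-κB targets). The receptors, cytokines and NF-κB and STAT3 genes of the background were named as well. Where several probe sets read a gene, the one with the highest mean was its main probe set. Alternatives (13) were median centring, an intensity trend, array weights, the replicate number as a block, leaving out each array, keeping only brighter probe sets, dropping _x_at probe sets, and 1 probe set per gene. Promoter sequences are from RefSeq (GRCh38.p14).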

Additional observations from a re-analysis of the deposited data

How the results depend on the processing

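With 0 in each of the 13 alternatives, no member passed the adjusted threshold under any setting tried. Of 155 alternative values of single members, 154 kept their direction. Many could not reverse, since the intensity trend, the replicate block and the probe set filters leave a log2 fold change unchanged by construction. IL6 reversed to -0.012 without SCGB3A1 replicate 1 (-0.012 to 0.052 when 1 array was left out). Over all probe sets the count past the adjusted threshold, 10 as reported, was 19 with an intensity trend, 16 with array weights, 6 among probe sets above the median level and 1 to 6 when 1 array was left out. With the replicate number as a block it was 4. The deviations of same-numbered arrays from their group means had correlations of 0.15, -0.14 and -0.087, and those of differently numbered arrays -0.24 to 0.25. With so few arrays, these values cannot decide whether the numbers pair the samples.

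Members higher at an unadjusted p under 0.05 (2 as reported) were 1 without _x_at probe sets and 1 to 3 when 1 array was left out, 1 being without empty vector replicate 2 and 3 without SCGB3A1 replicate 3, where CXCL5 214974_x_at also passed. Members lower (1 as reported) were 0 above the median level and 0 with 1 probe set per gene, since 230101_at is dim and not the main CXCL2 probe set. Without overlap, members higher (2 as reported) were 1 above the median level, 1 with 1 probe set per gene and 2 to 4 when 1 array was left out, 4 being reached without SCGB3A1 replicate 1 or empty vector replicate 3. Members lower without overlap (1 as reported) were 0 above the median level, 0 with 1 probe set per gene and 1 to 3 when 1 array was left out, 3 being reached without SCGB3A1 replicate 3. With fewer arrays, groups overlap less often by construction. The shares over all probe sets given above (5.95% higher and 5.25% lower) are for all 6 arrays and are no measure for these fits.

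Signal limits CXCL5, CXCL6 and 2 of the 3 CXCL2 probe sets, which lie below the median level. In the list medians, the level filter moved CC chemokines to -0.14 and other IL-6 family cytokines to 0.091. Fibroblast markers (0.0055) moved to 0.15 with 1 probe set per gene, and endothelial markers (-0.0032) to -0.043 without SCGB3A1 replicate 2, 0.048 without SCGB3A1 replicate 3 and 0.038 without empty vector replicate 1.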
